A study of Danio rerio with 2 samples.

Results

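The respiratory chain and the ATP synthase of zebrafish embryos were examined in sorted embryonic cells. The embryos carried Tg(fli1a:EGFP)y1 and are labelled 22 to 24 hpf, while the design text gives 24 hpf. The members are the genes with a transcript that the deposited files describe as NADH dehydrogenase, cytochrome c oxidase, cytochrome b, ATP synthase or succinate dehydrogenase. They number 108 of the 22017 genes with a read, of which 13 are encoded by the mitochondrial genome and 95 by the nucleus. The words take in more than subunits. By their names, 74 of the nuclear genes are subunits of complexes I to V, 9 are assembly factors and 12 are other proteins with cytochrome b in their name, among them cytochrome b5 and its reductases. They also leave out subunits that the files name otherwise, such as the β subunit of the ATP synthase.

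The transgene places EGFP under the fli1a promoter, which is active in endothelium and also in blood and pharyngeal arch cells. GFP+ cells are labelled endothelial and GFP- cells non-endothelial. Both came from embryos of this line that were dissociated for sorting, and how many embryos were pooled is not given in the sources used here. Each group is 1 library, so no difference has a replicate check, no p-value is given and all intervals are 95% exact Clopper-Pearson intervals that cover counting error only. The GFP+ library held 4.44 M counted reads and the GFP- library 4.11 M (M, 1e06 reads). All 14 endothelial marker genes with at least 10 reads were more than 2-fold higher in GFP+ cells, as were 21 of 22 erythroid and 10 of 14 myeloid markers. Their log2 ratios ran from 1.85 for etsrp to 9.29 for mrc1a in the endothelial list, from 0.42 for nfe2 upward to tfr1a in the erythroid list, and from -0.11 for cyba to 5.56 for lyz in the myeloid list. Of the muscle and heart markers 18 of 19 were more than 2-fold lower, and of the neural markers 12 of 15, with ranges from -3.74 for myog to -0.65 for myh6 and from -2.96 for sox19a to 0.66 for elavl4. Of the defining endothelial markers sox7, cdh5 and tek had 0 reads in GFP- cells and 2, 5 and 7 in GFP+ cells. Hemoglobin genes alone took 6.60% of the GFP+ reads and 0.0554% of the GFP- reads.

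Complexes I to IV of the inner mitochondrial membrane pass electrons from NADH and succinate to oxygen, and complexes I, III and IV pump protons as they do so. Complex V, the ATP synthase, makes ATP as the protons flow back. Most subunits are nuclear genes whose proteins are imported, while a core of complexes I, III, IV and V is made inside the organelle from long transcripts that span many genes of the mitochondrial genome. Complex II is nuclear throughout and is also an enzyme of the citric acid cycle. Cells with a high energy demand, such as muscle, neurons and heart, are known for a high content of these complexes, and some subunits of complex IV have isoforms of their own in muscle, heart or lung of mammals.

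Most nuclear respiratory chain genes lay within 2-fold of the same level in both populations. The log2 ratio of GFP+ over GFP- cells was computed from reads per M counted reads with 0.5 reads added, and was read only where a gene had 10 or more reads in the libraries together. Of the 95 nuclear members 79 had that many, and 1 of these was more than 2-fold higher and 6 were more than 2-fold lower in GFP+ cells. Over all 15252 genes with at least 10 reads the same rule called 16.2% higher and 17.6% lower. The median log2 ratio was -0.15 for the 79 nuclear members, -0.21 for the 65 subunits of complexes I to V among them, and -0.11 for all genes. The quartiles of all genes were -0.72 and 0.59 on the log2 scale, and those of the 65 nuclear subunits of complexes I to V were -0.46 and -0.00. In a bulk library, a smaller share of cells with many mitochondria and less of these transcripts per cell cannot be told apart.

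**Figure D1:**
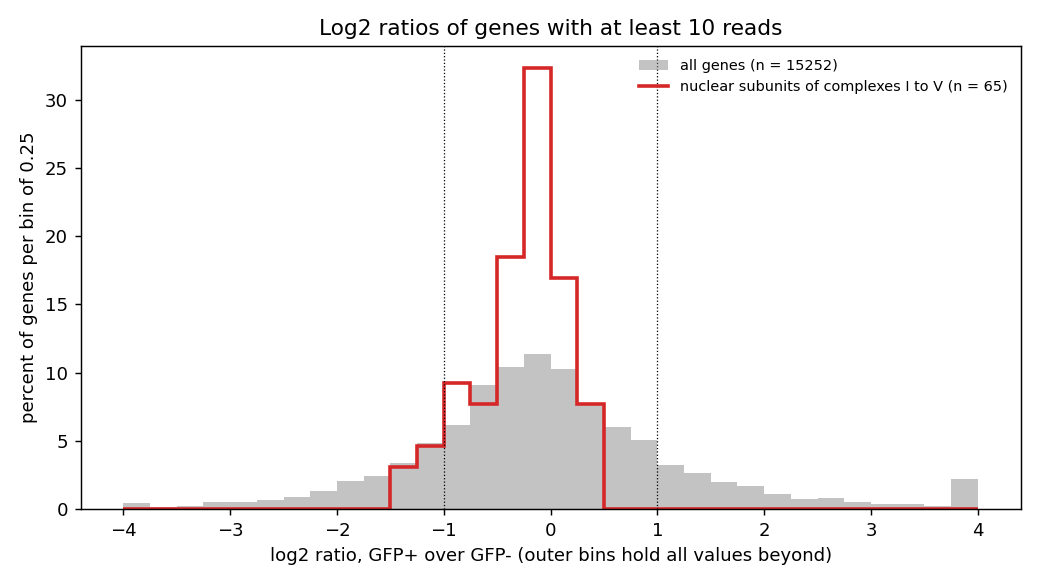
Percent of genes in each bin of 0.25 of the log2 ratio of GFP+ over GFP- cells, for all 15252 genes with at least 10 reads (grey) and for the 65 nuclear subunits of complexes I to V (red line), with dotted lines at 2-fold and the outer bins holding all values beyond. The subunits lie mostly near 0, with 5 below -1 and 0 above 1, while all genes spread far beyond both lines.

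The contrast in spread was also present among deeply read genes. Among genes with at least 200 reads, 10.9% of 5589 were more than 2-fold higher and 13.2% more than 2-fold lower, whereas of the 45 nuclear subunits with that many reads 0 were higher and 3 were lower. These 3 are ndufa4b, cox6b1 and atp5mc3a. Differences beyond counting error were no more frequent than among all genes. The counting interval lay above a ratio of 1 for 8 of the 79 nuclear members (10.1%, against 23.7% of all genes) and under it for 22 (27.8%, against 30.2%). Such shares grow with depth. For the 45 subunits with at least 200 reads they were 13.3% above and 42.2% under, against 29.9% and 44.0% of all genes with that many. With the log2 ratios centred on the median of all genes, the numbers for the 79 nuclear members were 11 and 17. The matching shares of all genes under centring were not computed. The centred median of the nuclear members was -0.03.

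The order of the levels was nearly the same in both libraries. Over the 65 nuclear subunits with at least 10 reads the rank correlation of RPKM, the deposited reads per kilobase of transcript and per M counted reads, summed over the transcripts of a gene, was 0.983, as a description across genes that share both libraries. Among the nuclear members, the highest RPKM in GFP+ cells was that of atp5fa1, the catalytic-ring α subunit of the ATP synthase, at 567 in GFP+ and 587 in GFP- cells. In GFP- cells it was that of cox4i1, the largest nuclear subunit of complex IV, at 526 and 650. The subunits atp5f1b, at 718 and 733, and cox6b2, at 611 and 661, which the words do not match, stood above both. At the lower end, some subunits had well under 10 RPKM in both libraries, such as ndufa12 at 3.28 and 3.44, far under ndufs6 of the same complex at 191 and 211. Counted reads covered 7.81% and 14.1% of the main ndufa12 transcript, and reads that map in more than 1 place were not counted.

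**Figure D2:**
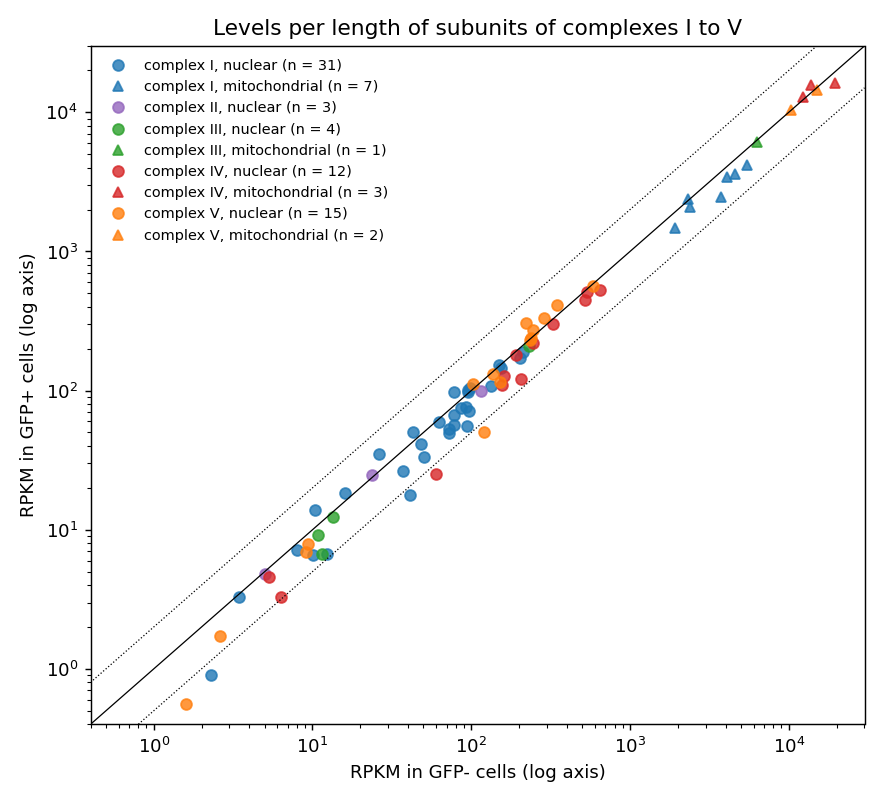
RPKM in GFP- cells against RPKM in GFP+ cells, both on log axes and summed over the transcripts of a gene, for subunits of complexes I to V with at least 10 reads. Circles are nuclear and triangles mitochondrial-encoded genes, the solid line marks equal levels and the dotted lines 2-fold. The points follow the line of equal levels over the whole range, and the 13 mitochondrial-encoded genes stand above all nuclear subunits.

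The mitochondrial-encoded genes took 8.37% of the GFP+ reads (8.34% to 8.39%) and 9.24% of the GFP- reads (9.21% to 9.26%). Their summed reads had a log2 ratio of -0.14 (-0.15 to -0.14), which was -0.03 when centred on the median of all genes. None of the 13 reached 2-fold in either direction, against 16.2% of all genes higher and 17.6% lower. Their log2 ratios ran from -0.60 to 0.19. Reads covered at least 97% of the length of each of these genes in both libraries, with the lowest value at 97.6%. Their order by RPKM began with mt-co1, mt-co2, mt-atp6, mt-co3 and mt-atp8 in GFP+ cells, and with mt-co1, mt-atp6, mt-co2, mt-co3 and mt-atp8 in GFP- cells.

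Most mitochondrial-encoded genes of complex I had log2 ratios below 0. The genes mt-nd1 to mt-nd6 and mt-nd4l encode the membrane arm that carries the proton channels of complex I. An interval under a ratio of 1 was found for 6 of these 7 genes (85.7%, against 30.2% of all genes). Their many reads make the intervals narrow, so that even small differences exceed counting error. The lowest was mt-nd6, the only protein gene of the group on the reverse strand, with 5698 reads in GFP+ and 7998 in GFP- cells and a log2 ratio of -0.60 (-0.65 to -0.55). It was followed by mt-nd3, with 2301 and 2750 reads (-0.37, -0.45 to -0.29), mt-nd1, with 18255 and 21731 (-0.36, -0.39 to -0.34), and mt-nd2, with 16886 and 19729 (-0.34, -0.37 to -0.31). The ratios of mt-nd4, with 21015 and 23038 reads, and mt-nd5, with 16821 and 17822, were -0.25 and -0.20. The exception was mt-nd4l, with 3153 and 2809 reads and a log2 ratio of 0.05 (-0.02 to 0.13). All 6 lower genes stayed below 0 under every scaling that was tried.

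The other mitochondrial-encoded genes stood on both sides of equal. The gene mt-co1, which encodes the catalytic core of complex IV, had 111356 reads in GFP+ and 125358 in GFP- cells (RPKM 16165 and 19686), a log2 ratio of -0.28 (-0.30 to -0.27). The genes of its partner subunits went the other way. For mt-co2, whose product receives electrons from cytochrome c, 48447 and 39269 reads gave 0.19 (0.17 to 0.21), and for mt-co3 45199 and 39827 reads gave 0.07 (0.05 to 0.09). Within a library, where no scaling enters, the RPKM of mt-co1 was 1.02 times that of mt-co2 in GFP+ cells (1.01 to 1.04) and 1.42 times in GFP- cells (1.41 to 1.44). The gene of cytochrome b, mt-cyb, which is the electron-carrying core of complex III, had 30872 and 29638 reads and a log2 ratio of -0.05. Both ATP synthase genes were near equal as well, mt-atp6, the proton channel subunit, at -0.05 with 44033 and 42282 reads and mt-atp8 at 0.01 with 7578 and 6975. The signs for mt-cyb and mt-atp6 turned with TMM scaling, with size factors, with totals without hemoglobin and with centring, and that of mt-atp8 turned with totals without mitochondrial-encoded reads.

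**Figure D3:**
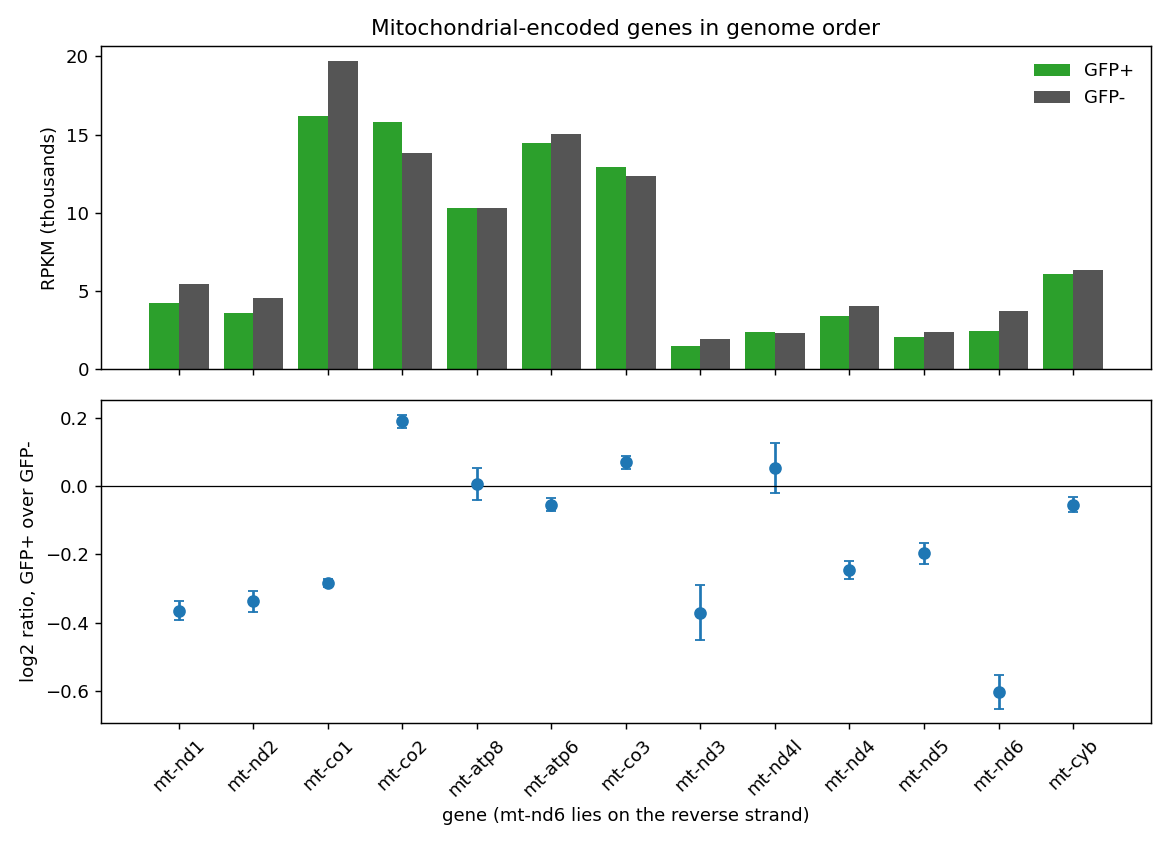
The 13 mitochondrial-encoded genes in their order along the genome. Upper panel: RPKM, in the multiples printed on the axis, in GFP+ (green) and GFP- (grey) cells. Lower panel: log2 ratio of GFP+ over GFP- cells with 95% counting intervals. The run from mt-co1 to mt-co3 holds the 5 highest levels in both libraries, mt-co2 has the highest ratio at 0.19 and mt-nd6 the lowest at -0.60.

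Some neighbours on the mitochondrial genome differed in ratio. On Zv9, mt-nd5 ends at base 14717 on the forward strand and mt-nd6 lies at 14714 to 15232 on the reverse strand, and the RPKM of mt-nd5 was 0.841 times that of mt-nd6 in GFP+ cells (0.816 to 0.867) and 0.635 times in GFP- cells (0.619 to 0.652). The labels name no strand-specific counting, so that reads of mt-nd6 and of transcripts running across it on the other strand cannot be told apart. The overlapping genes mt-nd4l and mt-nd4 share 7 bases, and the RPKM of mt-nd4 was 1.43 times that of mt-nd4l in GFP+ cells (1.38 to 1.49) and 1.76 times in GFP- cells (1.70 to 1.83). The ratio of mt-atp6 to mt-atp8, which also overlap by 7 bases, was 1.40 and 1.46, with intervals that overlap. For comparison across genomes, mt-co1 had 30.7 times the RPKM of the nuclear cox4i1 in GFP+ cells (29.3 to 32.3) and 30.3 times in GFP- cells (28.9 to 31.7), and mt-atp6 had 25.6 and 25.7 times that of atp5fa1.

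Of the 35 nuclear genes of complex I, the entry point for electrons from NADH, 31 had at least 10 reads. Their median log2 ratio was -0.21. Called lower were 2 (6.45%, against 17.6% of all genes) and called higher 0 (against 16.2%). An interval under a ratio of 1 was found for 9, or 29.0%, which is near the 30.2% of all genes, and above it for 2, or 6.45%, against 23.7%. Their summed reads gave -0.20 (-0.25 to -0.15). The range of RPKM was wide, up to 191 in GFP+ and 211 in GFP- cells for ndufs6, a small zinc-binding subunit of the peripheral arm. The accessory subunits ndufs5, at 171 and 202, ndufb10, at 154 and 150, and ndufb8, at 144 and 155, were also high.

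The lower end of complex I was led by ndufa4b, ENSDARG00000056108, which Zv9 places at 10855556 to 10859059 of chromosome 12, forward strand. Its reads numbered 84 in GFP+ and 181 in GFP- cells (RPKM 17.6 and 41.1). The log2 ratio was -1.22 (-1.61 to -0.84), or 2.32-fold lower in GFP+ cells. The mammalian protein of this name was first counted in complex I and was later placed in complex IV. The other gene called lower, ndufa9b, had only 3 and 7 reads (-1.21, -3.92 to 0.80), which covered 10.9% of its length in each library. Then came ndufa5, with 14 and 24 reads (-0.87, -1.96 to 0.12), and ndufs8a, a carrier of iron-sulfur clusters, with 392 and 610 reads (-0.75, -0.94 to -0.57). Also under 1 with its whole interval was ndufab1b, the mitochondrial acyl carrier protein that doubles as a subunit, with 226 and 317 reads (-0.60, -0.85 to -0.35).

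At the upper end of complex I, ndufb6 had 86 and 59 reads (0.43, -0.06 to 0.93) and ndufv3 had 31 and 22 (0.37, -0.45 to 1.24). For ndufs7, which holds the last iron-sulfur cluster before ubiquinone, 285 and 210 reads gave 0.33 (0.06 to 0.59). The gene ndufv1, whose product binds NADH and flavin at the start of the electron path, had 428 and 338 reads (0.23, 0.02 to 0.44). They covered 32.48% and 32.85% of its transcript. Genes of the electron path thus stood at both ends of the range, and the differences at the upper end were at most 1.34-fold.

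Complex II was thinly covered. Of its 5 genes, sdhb, the iron-sulfur subunit, had 520 and 556 reads (RPKM 99.5 and 115) and a log2 ratio of -0.21 (-0.39 to -0.03). The gene sdhdb, which encodes the membrane anchor that carries part of the heme site, had 164 and 144 reads (0.07, -0.26 to 0.41), and sdha, the flavoprotein that oxidises succinate, had 54 and 50 (-0.00, -0.58 to 0.58). Counted reads covered only 7.83% and 7.55% of the main sdha transcript. With 3 and 2 reads for sdhc and 1 and 1 for sdhda, no difference was detectable at this depth.

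Complex III had 4 nuclear members, all with at least 10 reads and all with a log2 ratio below 0, as had 8338 of all 15252 genes. For 1 of them (25%, against 30.2% of all genes) the interval lay under a ratio of 1. Their median was -0.20, and -0.08 with centring on the median of all genes. The Rieske iron-sulfur protein, which passes electrons to cytochrome c1, appeared as 2 genes on chromosome 7 that the files give the same protein name. ENSDARG00000007745, from 46455512 to 46458508, had 47 and 75 reads (-0.78, -1.35 to -0.24), and ENSDARG00000077402, from 46580356 to 46583100, had 76 and 77 (-0.13, -0.61 to 0.34). Reads covered 32.8% and 40.1% of the first and 37.0% and 42.9% of the second, and reads common to both copies were not counted, so that their separate values are uncertain. The small subunits uqcrq, with 371 and 378 reads, and uqcrb, with 19 and 21, had ratios of -0.14 and -0.25. Of the complex III genes that the files name otherwise, the core proteins uqcrc1 and uqcrc2a and the hinge protein uqcrh lay between -0.06 and 0.07. The core protein gene uqcrc2b, with 678 and 717 reads, was at -0.19 (-0.35 to -0.04), and cyc1, which encodes cytochrome c1, had 574 and 731 reads and a ratio of -0.46 (-0.62 to -0.30).

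**Figure D4:**
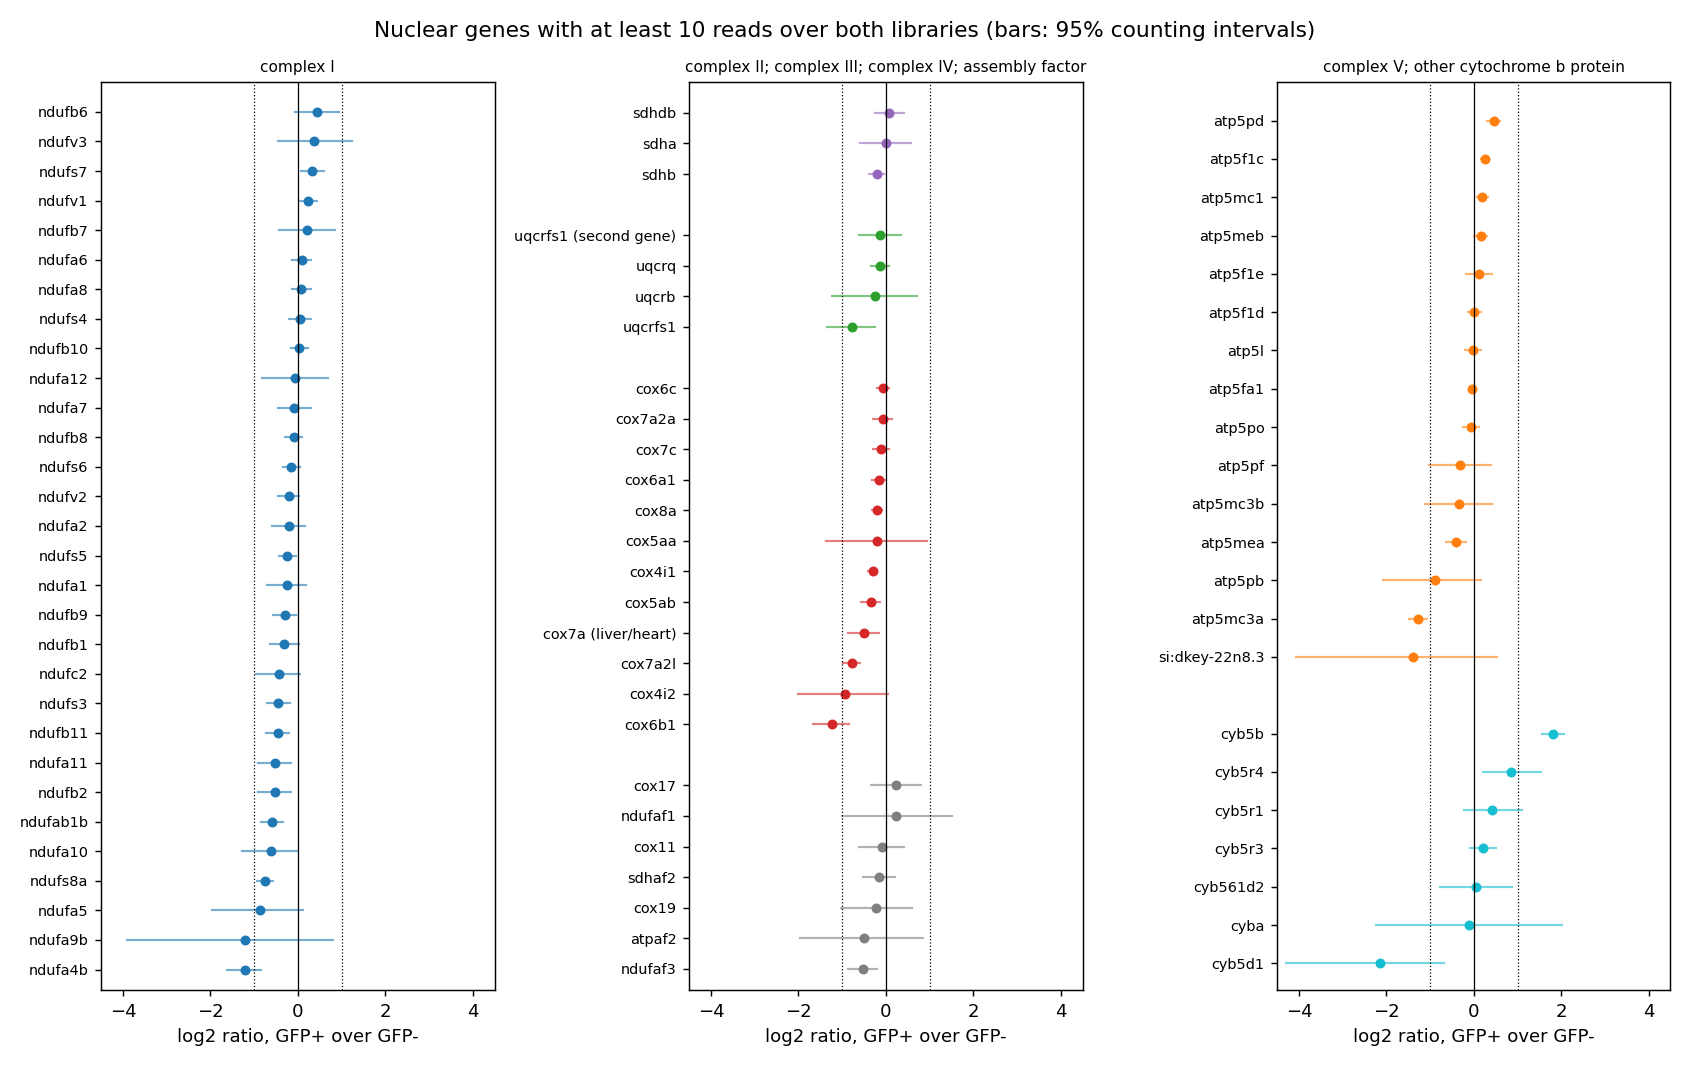
Log2 ratio of GFP+ over GFP- cells for 78 nuclear members with at least 10 reads, by complex or role, with 95% counting intervals as bars and dotted lines at 2-fold. Points beyond the dotted lines on the left are ndufa4b, ndufa9b, cox6b1, atp5mc3a, si:dkey-22n8.3 and cyb5d1, and on the right cyb5b alone.

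The nuclear members of complex IV had log2 ratios below 0 when scaled to library totals. This held for all 12 with at least 10 reads, as for 8338 of all 15252 genes, and their median was -0.26. Of the 12, 7 (58.3%, against 30.2% of all genes) had their whole interval under a ratio of 1. The share of all genes grows with depth, and was 44.0% of those with at least 200 reads. The log2 ratio was not below 0 for mt-co2 and mt-co3, nor for cox5b, a complex IV gene outside the members, with 175 and 152 reads (0.09, -0.23 to 0.41). With TMM scaling, size factors, totals without hemoglobin or centring, cox6c and cox7a2a turned to above 0. With centring, cox7c stood at 0 and the median was -0.14. The summed reads gave -0.27 (-0.32 to -0.22), against -0.11 (-0.12 to -0.10) for its mitochondrial-encoded genes. Of the nuclear members those with the highest levels were cox4i1, with 1657 and 1892 reads (RPKM 526 and 650, log2 ratio -0.30, -0.40 to -0.21), cox6c, with 941 and 914 (511 and 536, -0.07, -0.20 to 0.06), and cox8a, with 1199 and 1276 (451 and 519, -0.20, -0.32 to -0.09).

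The largest difference in complex IV was that of cox6b1, ENSDARG00000045230, found at 41179012 to 41183544 of chromosome 24, reverse strand. The subunit it encodes faces the space between the membranes near the site where cytochrome c docks. It had 71 and 156 reads, RPKM of 25.3 and 60.0, and a log2 ratio of -1.24 (-1.67 to -0.84). A second gene for this subunit, cox6b2, is not among the members, and had 1488 reads in each library and RPKM of 611 and 661. The RPKM of cox6b2 was thus 24.2 times that of cox6b1 in GFP+ cells (19.1 to 31.2) and 11.0 times in GFP- cells (9.34 to 13.1). A like pair, cox4i1 and cox4i2, of which the second is the lung and low-oxygen isoform in mammals, stood at 161 times (95.7 to 295) and 103 times (69.6 to 160), intervals that overlap. The gene cox4i2 itself had 14 and 25 reads (-0.93, -2.01 to 0.05).

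Of the VIIa subunits, cox7a2l, which in mammals joins complexes III and IV into a supercomplex, had 355 and 562 reads (RPKM 121 and 207) and a ratio of -0.78 (-0.97 to -0.58). Its relative cox7a2a had 388 and 378 reads (RPKM 181 and 191) and a ratio of -0.08 (-0.28 to 0.13). Another gene, ENSDARG00000086341, which the files describe as the VIIa liver/heart polypeptide, had 123 and 162 (-0.51, -0.86 to -0.16). Genes of this family therefore ranged from near equal to 1.71-fold lower. Those whose mammalian namesakes are the muscle and heart isoforms were barely read, cox6a2 with 1 and 0 reads and cox7a1 with 1 and 1. The remaining genes lay between -0.35 for cox5ab, with 349 and 411 reads, and -0.11 for cox7c, with 521 in each library, and included cox6a1 with 613 and 635 (-0.16) and cox5aa with 14 and 15 (-0.21).

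The genes of complex V stood on both sides of equal. All 15 nuclear members had at least 10 reads, the median log2 ratio was -0.05, which turned to 0.06 with centring, and the summed reads gave 0.01 (-0.03 to 0.05). The interval lay above a ratio of 1 for 4 genes (26.7%, against 23.7% of all genes) and under it for 2 (13.3%, against 30.2%). The 4 higher genes were atp5pd, a part of the peripheral stalk that holds the head still, with 979 and 661 reads (RPKM 305 and 223, log2 ratio 0.45, 0.31 to 0.60), atp5f1c, the rotating central shaft, with 1918 and 1487 (416 and 349, 0.25, 0.16 to 0.35), atp5mc1, with 1028 and 829 (332 and 289, 0.20, 0.06 to 0.33), and atp5meb, an e subunit at the dimer face, with 757 and 628 (271 and 243, 0.16, 0.00 to 0.31). The α subunit atp5fa1 had 4741 and 4536 reads (-0.05, -0.11 to 0.01). Its β partner in the head, atp5f1b, which the words do not match, had 5593 and 5285 (-0.03, -0.09 to 0.02), and the RPKM of the α subunit was 0.790 and 0.800 times that of the β subunit in the respective libraries.

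The c subunit, which forms the rotor ring, had 3 genes, of which atp5mc1 and atp5mc3a differed in ratio beyond counting error. The largest difference was that of atp5mc3a, ENSDARG00000017775, at 2328644 to 2336221 of chromosome 9, forward strand, with 291 and 649 reads, RPKM of 50.1 and 120, and a log2 ratio of -1.27 (-1.48 to -1.07). It was the only nuclear member whose whole interval lay beyond 2-fold lower. Its paralog atp5mc1, at 23890533 to 23895475 of chromosome 3, reverse strand, had a ratio of 0.20, and atp5mc3b, with 29 and 34 reads, of -0.34 (-1.11 to 0.42). The interval of atp5mc3b overlaps those of both others. Within a library, the RPKM of atp5mc1 was 6.62 times that of atp5mc3a in GFP+ cells (5.80 to 7.56) and 2.40 times in GFP- cells (2.17 to 2.67). It was 42.0 times that of atp5mc3b in GFP+ cells (29.1 to 63.1) and 31.1 times in GFP- cells (22.1 to 45.2), intervals that overlap. Counted reads covered 29.7% and 32.8% of the main atp5mc3a transcript, against 99.3% and 98.3% for atp5mc1, and reads shared among the paralogs were not counted.

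A smaller split of the same kind was seen for the e subunit. The gene atp5mea had 284 and 348 reads (-0.41, -0.64 to -0.18) while atp5meb was at 0.16, and the RPKM of atp5meb was 2.36 times that of atp5mea in GFP+ cells (2.06 to 2.71) and 1.60 times in GFP- cells (1.40 to 1.83). The other gene past 2-fold, si:dkey-22n8.3, which the files describe as coupling factor 6, had 3 and 8 reads (-1.39, -4.08 to 0.53). The named coupling factor gene atp5pf had 33 and 38 (-0.31, -1.04 to 0.39), and atp5pb, the b subunit of the stalk, 12 and 21 (-0.90, -2.08 to 0.17). Counted reads covered only 5.72% and 6.08% of the main atp5pf transcript. The δ subunit atp5f1d, with 816 and 747 reads, the ε subunit atp5f1e, with 200 and 170, the g subunit atp5l, with 532 and 498, and atp5po, with 483 and 466, lay between -0.06 and 0.12.

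The 3 subunits with at least 200 reads that were called lower can be set beside the markers of other tissues. As each group is 1 library, they share their direction with all genes called lower, 13.2% of those with at least 200 reads. The muscle and heart markers took 0.129% of the GFP+ reads and 0.455% of the GFP- reads, with a median log2 ratio of -2.11, and the neural markers 0.118% and 0.266%, with a median of -1.71. Of these markers only tnnt3a, with 0 and 1 reads, was at 0 in a library. The part of such cells in the differences of ndufa4b, cox6b1 and atp5mc3a was not tested.

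Assembly factors build the complexes without staying in them. Of 9 such genes 7 had at least 10 reads, with a median log2 ratio of -0.15. None was past 2-fold, against 16.2% of all genes higher and 17.6% lower. The lowest was ndufaf3, for complex I, with 134 and 179 reads (-0.53, -0.87 to -0.20). It was the only one whose interval excluded a ratio of 1 (14.3%, against 30.2% of all genes with an interval under 1). The next were atpaf2, for the head of the ATP synthase, with 9 and 12 reads (-0.51, -1.95 to 0.84), and cox19 with 27 and 29 (-0.21, -1.03 to 0.59). For cox17, which carries copper to complex IV, 62 and 49 reads gave 0.22 (-0.34 to 0.80). Also above 0 was ndufaf1 with 14 and 11 (0.22, -1.01 to 1.52), and sdhaf2, which helps attach the flavin to complex II, had 126 and 129 (-0.15, -0.51 to 0.22) and cox11 67 and 66 (-0.09, -0.60 to 0.42).

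The single member called higher was not a respiratory chain subunit. The gene cyb5b, ENSDARG00000053954, at 69787763 to 69798596 of chromosome 7, forward strand, encodes the cytochrome b5 of the outer mitochondrial membrane, a small heme protein that hands electrons to other enzymes. Its 670 reads in GFP+ and 177 in GFP- cells gave RPKM of 90.7 and 24.7, and a log2 ratio of 1.80 (1.57 to 2.05), or 3.49-fold higher in GFP+ cells. Both of its transcripts were higher, the main one with 654 and 176 reads and the shorter one with 16 and 1. The erythroid markers, with globin genes among them, took 4.48% of the GFP+ reads and 0.0525% of the GFP- reads, with slc4a1a at 46 and 0 reads. Their part in this difference was not tested.

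Among the reductases that serve cytochrome b5, cyb5r4 had 59 and 30 reads (0.85, 0.20 to 1.55), cyb5r1 51 and 35 (0.42, -0.22 to 1.09) and cyb5r3 223 and 178 (0.21, -0.08 to 0.50). The gene cyb5d1, a cytochrome b5 domain protein, had 4 and 18 reads and was called lower (-2.15, -4.31 to -0.68). Its main transcript, the only one that the words match, had 2 and 18 reads. The genes of the phagocyte oxidase, cyba with 5 and 5 reads and cybb with 1 and 0, showed no difference detectable at this depth, and cyb561d2 had 29 and 26 (0.04, -0.77 to 0.87). The 7 genes of this class with at least 10 reads had a median of 0.21, and without them the nuclear members held 0 genes above 2-fold.

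Too few reads were counted on 16 nuclear members for a ratio. In GFP+ and GFP- cells these were ndufa3 (0 and 2), ndufs8b (0 and 2), ndufb5 (2 and 2), ndufb4 (1 and 0), sdhc, sdhda, cox7a1, cox6a2, a gene described as like cytochrome c oxidase subunit 5B (2 and 1), atpaf1 (1 and 4), dmac2l (3 and 0), cyb5r2 (1 and 4), cyb561d1 (4 and 4), cyb561 (5 and 3), cyb561a3 (4 and 1) and cybb. A count of 0 allows up to 3 reads, or 0.675 RPM in GFP+ and 0.731 RPM in GFP- cells.

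Other subunits that the words leave out were read as well. Of 15 such genes found by symbol after the members had been listed, cyc1 not among them, 12 had at least 10 reads. Their median was -0.06 and none was past 2-fold, against 16.2% of all genes higher and 17.6% lower. An interval under a ratio of 1 was found for 3 (25%, against 30.2% of all genes) and above it for 0 (against 23.7%). Lists of other genes that serve respiration were set beside them. Of 10 genes of complex III and its assembly with other names, uqcrc1, uqcrc2a and uqcrh are also among the 15. Among the 10, 2 were lower (20%, against 17.6% of all genes), and the median was -0.43. These were bcs1l with 16 and 36 reads (-1.26) and lyrm7 with 30 and 56 (-1.003, -1.70 to -0.35). The ratio of lyrm7 is barely past the cut, and with centring, which raises every ratio by 0.11, lyrm7 is not called. In mammals bcs1l and lyrm7 serve to insert the Rieske protein. Of 21 genes for cytochrome c, ubiquinone synthesis and the carriers of the membrane 1 was higher, ucp2, an uncoupling protein relative, with 371 and 137 reads (1.32). Called lower was 1, vdac1, the outer membrane pore, with 728 and 1529 (-1.18). Each is 4.76% of the list, against 16.2% and 17.6% of all genes, and the median was -0.07. Of 63 mitochondrial ribosomal protein genes 1 was higher (1.59%, against 16.2% of all genes), mrps15 with 1231 and 484 (1.23). Called lower were 4 (6.35%, against 17.6%), down to mrpl17 with only 1 and 10 reads (-2.92), and the median was -0.29. An interval under a ratio of 1 was found for 30 (47.6%, against 30.2% of all genes) and above it for 2 (3.17%, against 23.7%). Among all genes with at least 200 reads these shares were 44.0% and 29.9%. Of 21 genes for upkeep and expression of the mitochondrial genome 0 were past 2-fold, against 16.2% of all genes higher and 17.6% lower. Their median was 0.14 and their summed reads gave -0.36 (-0.42 to -0.30). They ran from pprc1, a coactivator, with 1109 and 1867 reads (-0.86) to mtif2, a translation initiation factor, with 228 and 149 (0.50).

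Lists of genes that feed the chain were read in the same way. Of 23 genes of the citric acid cycle and of pyruvate dehydrogenase and its kinases 5 were higher (21.7%, against 16.2% of all genes) and 1 was lower (4.35%, against 17.6%). Their median was 0.28, but their summed reads went the other way, at -0.25 (-0.29 to -0.21). The interval lay above a ratio of 1 for 9 genes (39.1%, against 23.7% of all genes). It lay under 1 for 8 (34.8%, against 30.2%), such as idh2, an isocitrate dehydrogenase, with 1614 and 2435 reads (-0.71). The gene called lower was mdh1ab, a cytosolic malate dehydrogenase, with 23 and 87 reads (-2.01). The 5 higher genes were the kinases pdk2a, pdk2b and pdk4, which hold pyruvate dehydrogenase back, ogdhb, a subunit of oxoglutarate dehydrogenase, and aco1, the cytosolic aconitase, with 479 and 34 reads (3.68). For pdk2b, with 19 and 0 reads, setting the floor of 3 reads in place of 0 gives 5.85-fold higher in GFP+ cells. That value leaves aside the counting error of the 19 reads, and the exact interval of the log2 ratio begins at 2.11. Of 17 glycolytic genes 7 were lower (41.2%, against 17.6% of all genes), from gapdh with 111 and 371 reads (-1.85) upward. The median was -0.66. Called higher was 1 (5.88%, against 16.2%), pfkma, a phosphofructokinase, with 148 and 6 (4.40). The interval lay under a ratio of 1 for 10 (58.8%, against 30.2% of all genes) and above it for 3 (17.6%, against 23.7%). The V-type ATPase, a proton pump of lysosomes, is built like the ATP synthase but runs in reverse. Of its 20 genes 3 were higher (15%, against 16.2% of all genes) and 0 lower (against 17.6%). The interval lay above a ratio of 1 for 11 (55%, against 23.7% of all genes) and under it for 1 (5%, against 30.2%). The median was 0.31, from atp6ap1b with 21 and 38 (-0.95) to atp6v0a1b with 64 and 14 (2.04). The summed reads gave 0.44 (0.38 to 0.49). Among all genes with at least 200 reads, the interval lay above a ratio of 1 for 29.9% and under it for 44.0%. For the deeply read genes of these lists that is the closer background.

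**Figure D5:**
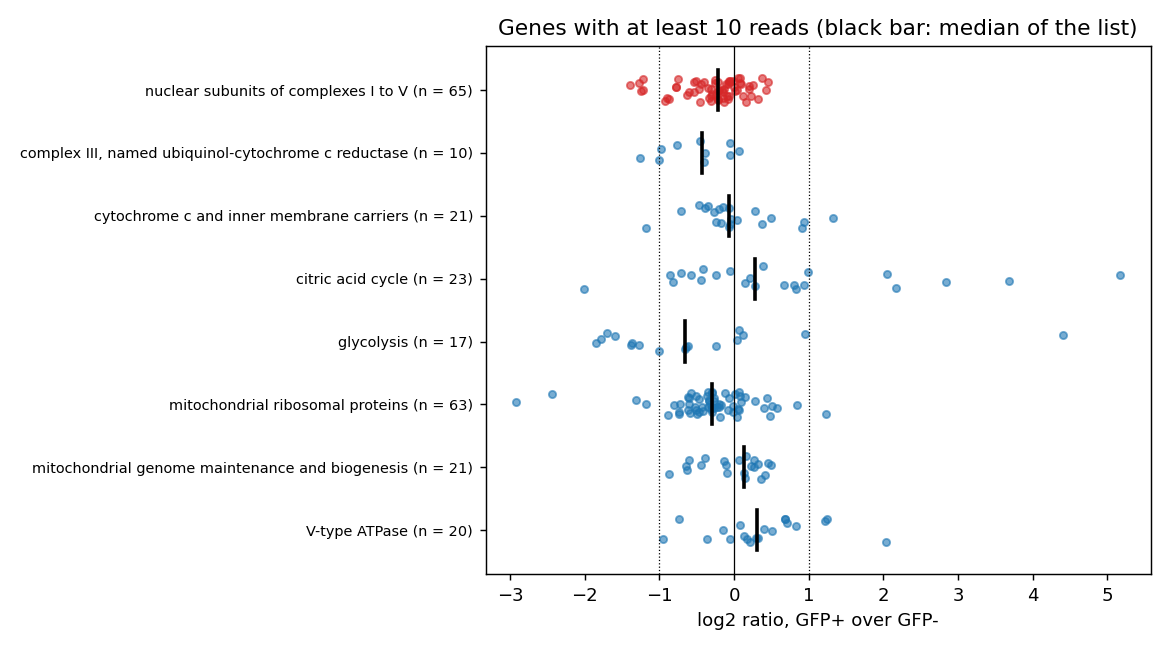
Log2 ratio of GFP+ over GFP- cells of each gene with at least 10 reads in 8 lists, with black bars at the medians and dotted lines at 2-fold; vertical scatter within a list has no meaning. Of the 65 nuclear subunits (red, median -0.21) 5 lie past 2-fold, all on the lower side. Past 2-fold are 0 of the 21 genes for mitochondrial genome maintenance and biogenesis (median 0.14) and 8 of the 17 glycolytic genes (median -0.66). In the citric acid cycle list, which also holds pyruvate dehydrogenase, its kinases and cytosolic enzymes, 6 of the 23 genes are (median 0.28).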

How the data were processed

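RNA of GFP+ and GFP- cells was sequenced as 1 library per group. The authors deposited, per the file headers, counts of uniquely mapped reads on Ensembl transcripts of Zv9 with at least 1 read, the percent of the length covered, and the RPKM, which was recomputed from the counts and matched. The aligner, counter and handling of strand are not given in the sources used here. Library totals set the counting precision.

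Reads and RPKM were summed per gene. Ratios were scaled to library totals with 0.5 reads added. A gene needed 10 reads over both libraries and was called past a log2 ratio of 1 or -1. No test was run, since each group has 1 library. Intervals and floors (3 reads) cover counting error only and carry the exact interval of the GFP+ share of reads to the ratio. Lists were summarised by counts and medians beside all genes.

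Symbols, written in lower case, came from RefSeq genes of GRCz12tu by protein accession for 81 members and from a table of gene names for 23, and 4 had none. Names in the files were used where a symbol was missing or went against them. No coordinates were taken from RefSeq. Members, lists and roles were chosen with earlier results of these data known. Genes named were, by rule, all mitochondrial-encoded members, all called nuclear members, the 3 highest, 3 lowest and 3 most abundant of each complex or role, complex II, the tissue isoforms and c subunit genes, and the extremes of each list. Others named, such as cyb5r1 or the further subunits, were chosen after their values were seen.

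Alternatives were TMM scaling, median-of-ratios size factors, totals without hemoglobin or mitochondrial-encoded reads, centring, 5 reads added, no minimum or 50 reads, the most-read or only the matching transcripts, 1.5-fold, and the whole interval past 2-fold. Procedures were tested on simulated data. Promoters were not analysed here, and the values of 1 member are not reported here by name. TMM factors came from edgeR 4.0.16 and size factors from DESeq2 1.42.0, both in R 4.3.3. The rest was computed in Python 3.11.15 with SciPy 1.17.1, NumPy 2.4.6 and pandas 2.3.3.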

Additional observations from a re-analysis of the deposited data

How the results depend on the processing

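No replicate could be left out. No paired analysis was possible because neither group has more than 1 library. Of 145 values computed under the alternatives for the members' counts and medians, 130 stayed within a set tolerance. It was 1.5 times a count, the interval half-width of a summed ratio, or the median interval half-width of the genes behind a median. The last is wide, at 0.33 for the nuclear members, so a median could change sign and still count as stayed. With TMM scaling the medians of nuclear complexes II and V did so, from -0.0034 to 0.11 and from -0.05 to 0.06. The number of nuclear members past 2-fold moved from 1 higher and 6 lower to 6 and 10 with no minimum, to 2 and 14 at 1.5-fold, to 3 lower with a minimum of 50 reads, and to 1 lower with the whole interval past 2-fold. These settings change which genes or folds are counted. With no minimum, the 6 and 10 were of 95 nuclear members, beside 4710 higher and 4953 lower of all 22017 genes. With a minimum of 50 reads, 1396 were higher and 1610 lower of all 10237 genes. For 1.5-fold and for the whole interval past 2-fold, no counts over all genes were computed. The mitochondrial-encoded genes, with their narrow counting error, moved with the scaling. Their median log2 ratio of -0.20 was -0.085 with TMM scaling, -0.083 with size factors or centring and -0.10 without hemoglobin reads, and the ratio of their summed reads, -0.14, was -0.0307 with TMM scaling, -0.0293 with size factors or centring, -0.045 without hemoglobin reads and -0.16 with totals without mitochondrial-encoded reads. TMM scaling moved the median of all genes by 0.1119. Both size factors were 1, which leaves the reads unscaled and gave the same shift as centring, 0.1134. Size factors and centring are therefore 1 check counted under 2 names, also among the 145 values, and TMM scaling is close to it. The sign of 12 of 92 members turned with TMM scaling, size factors or centring, all of them within 0.11 of 0. The c subunit, cox6b1, ndufa4b and cyb5b calls stayed past 2-fold under every scaling, with 5 reads added and with the most-read transcript.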
